A study of Mus musculus with 4 samples.

Results

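The cells described here are Ccl2/Ccl7-high inflammatory reticular cells of the mouse bone marrow stroma, 1145 of 9795 cells in 4 single-cell RNA-seq libraries. A cell was a member when *Cxcl12* made up at least 0.5% of its unique molecular identifiers (UMIs, 1 per captured transcript), *Adipoq* had at least 2 UMIs, and *Ccl2* and *Ccl7* together made up at least 0.05% of UMIs. Osteoblastic and blood cells were kept out by limits on *Wif1* (at most 1 UMI), *Bglap* and *Bglap2* (under 1% of UMIs together), *Spp1* (under 0.2%) and *Ptprc* (0 UMIs). The 1998 cells that passed every limit but had less *Ccl2* and *Ccl7* than 0.05% are called resting reticular cells, and the 3143 cells of both kinds together Spp1-low reticular cells. The cells were thus selected on the measured levels of these 9 genes, whose levels are given only as a description.

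The libraries were made from tdTomato+ cells sorted from femurs of Cxcl12-iCreER; R26R(tdTomato/+) mice, with 1 library from contralateral unoperated (CONT) and 1 from marrow-ablated (ABL) femurs in each of 2 biological replicates. All mice carried the same tamoxifen-inducible Cre, driven by a *Cxcl12* BAC transgene, and the same tdTomato reporter, and received tamoxifen 7 days before surgery. The right femur was ablated with a dental instrument, and both femurs were taken 7 days later, without distal growth plates, and digested with enzymes. The cells of a library came from pooled animals in replicate 1, and the control femur belonged to operated mice, so no library came from mice without surgery. Replicate 1 (CONT1, ABL1) used Chromium v2 and replicate 2 (CONT2, ABL2) Chromium v3 chemistry, and the effects of replicate and of chemistry cannot be told apart.

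Whole libraries held 22889380 to 44784072 UMIs, and 1438 to 3419 cells each. CONT1 held 471 members, ABL1 held 89, CONT2 held 543 and ABL2 held 42, so the ablated libraries rest on far fewer cells. Libraries of a replicate shared 5 and 1 cell barcodes, none of them of a member. *Xist*, the RNA of the inactive X chromosome, had a UMI in 42.5% of members in CONT1, 85.4% in ABL1, 72.0% in CONT2 and 0% in ABL2. *Ddx3y*, a Y-linked gene, stood at 61.3, 5.47, 40.1 and 105 CPM in members in the same order. In neither replicate did the CONT and ABL cells thus hold the same mix of female and male cells, which femurs of the same mice would give.

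Reticular cells, also called CXCL12-abundant reticular cells, are perivascular stromal cells of the marrow that hold hematopoietic stem cells and B-cell precursors near them through CXCL12 and stem cell factor. CCL2 and CCL7 are small secreted chemokines that bind the receptor CCR2 on inflammatory monocytes and draw these cells out of the marrow and into tissues. Their genes are classical targets of NF-kappaB, a transcription factor held in the cytoplasm by inhibitor proteins until cytokines such as interleukin-1 and tumour necrosis factor, or bacterial products, release it. NF-kappaB also switches on genes for its own inhibitors, among them *Nfkbia*.

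Of the reticular markers, *Cxcl12* and *Adipoq* were required by the rule and are given as a description, while *Lepr* and *Kitl* were not part of it. *Cxcl12* made up 1.60% of members' UMIs in CONT1, 1.65% in ABL1, 1.72% in CONT2 and 1.70% in ABL2, and *Adipoq*, the adiponectin gene, stood at 2378, 2054, 2051 and 1983 CPM (its UMIs scaled to 1000000 in all for the group). *Lepr*, the leptin receptor that marks these stromal cells and that the rule did not use, stood at 1243 CPM in CONT1, 739 in ABL1, 2301 in CONT2 and 739.9 in ABL2, against 5.59 to 90.3 in granulocytic cells of the same libraries. *Kitl*, which encodes stem cell factor, stood at 732, 619.5, 1813 and 1243 CPM in the same order. Both were lower in the ablated library of each replicate, a difference that the test of conditions described further on did not call.

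*Ccl2* and *Ccl7* lie side by side on chromosome 11, *Ccl2* at chr11:82035571-82037453 and *Ccl7* at chr11:82045712-82047525 (GRCm38, both on the plus strand), with 8258 bases between them, in a cluster with *Ccl11*, *Ccl12*, *Ccl8* and *Ccl1*. The promoters of 3 genes that rose with them are shown because they hold NF-kappaB sequences. They run from 250 bases before the start site to 50 bases after it (RefSeq, GRCm38.p6), written 5′ to 3′ on the strand of the gene: *Cxcl1* at chr5:90890995-90891294 on the plus strand, *Il6* at chr5:30012864-30013163 on the plus strand and *Nfkbia* at chr12:55492598-55492897 on the minus strand. Capitals mark matches to the kappa-B consensus, the DNA sequence that NF-kappaB binds, and in *Il6* also the TGANTCA match at its 5′ end, the sequence bound by AP-1.
*Cxcl1*: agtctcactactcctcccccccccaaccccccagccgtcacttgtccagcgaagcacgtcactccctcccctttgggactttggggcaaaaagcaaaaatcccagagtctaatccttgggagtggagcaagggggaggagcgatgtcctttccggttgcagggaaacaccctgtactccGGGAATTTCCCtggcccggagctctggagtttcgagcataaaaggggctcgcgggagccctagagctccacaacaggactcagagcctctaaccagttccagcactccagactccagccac
*Il6*: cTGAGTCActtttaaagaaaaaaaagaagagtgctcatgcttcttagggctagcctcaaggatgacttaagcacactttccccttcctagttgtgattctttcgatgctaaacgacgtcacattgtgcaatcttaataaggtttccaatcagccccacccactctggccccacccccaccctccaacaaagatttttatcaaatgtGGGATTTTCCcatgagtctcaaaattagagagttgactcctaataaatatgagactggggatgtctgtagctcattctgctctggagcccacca
*Nfkbia*: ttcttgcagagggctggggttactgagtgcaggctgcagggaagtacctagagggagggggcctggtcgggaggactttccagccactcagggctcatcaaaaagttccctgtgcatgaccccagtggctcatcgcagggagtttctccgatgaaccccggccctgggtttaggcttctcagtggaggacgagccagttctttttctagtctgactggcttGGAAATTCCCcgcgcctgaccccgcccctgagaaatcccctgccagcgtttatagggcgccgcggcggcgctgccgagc
*Cxcl1* held 2 kappa-B matches that overlap, with their first bases at positions -71 and -70 from the start site, *Il6* held 1 at -44 beside its TGANTCA at -249, and *Nfkbia* held 1 at -29. On either strand, a kappa-B match was present in 9.55% of the 27025 genes with a promoter, in 12.6% of the 8090 tested genes with one, in 23.8% of the 240 such genes that were higher in members and in 14.8% of the 54 that were lower. For TGANTCA these shares were 8.97%, 5.74%, 10.0% and 5.56%. A match is a string of letters and does not show that the site is bound.

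Members held most of the *Ccl2* and *Ccl7* RNA of the reticular cells, as the rule selects for, and the amount per cell varied widely. *Ccl2* stood at 2298 CPM in members of CONT1, 1342 in ABL1, 2118 in CONT2 and 2816 in ABL2, against 78.9, 59.5, 67.9 and 45.1 CPM in resting cells. *Ccl7* stood at 896, 749, 515 and 482 CPM in members, against 47.4, 50.8, 34.5 and 28.6 CPM in resting cells. Among members a *Ccl2* UMI was seen in 92.8%, 89.9%, 97.1% and 95.2% of cells and a *Ccl7* UMI in 73.2%, 71.9%, 79.2% and 66.7%, and both in 61.8% to 76.2%. *Ccl2* outnumbered *Ccl7* by 2.56 and 1.79 UMIs to 1 in CONT1 and ABL1 and by 4.11 and 5.84 to 1 in CONT2 and ABL2, so this ratio differed between the replicates and their chemistries.

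The distribution was continuous, with no gap at the limit of 0.05%. The median member carried 0.191% of its UMIs as *Ccl2* and *Ccl7* in CONT1, 0.172% in ABL1, 0.167% in CONT2 and 0.129% in ABL2, and the highest single cells 3.62%, 0.837%, 2.40% and 1.54%. The 10% of members with most UMIs of these 2 genes held 39.2% of the members' *Ccl2* and *Ccl7* in CONT1 (47 cells), 25.2% in ABL1 (9 cells), 37.7% in CONT2 (54 cells) and 44.9% in ABL2 (4 cells). The lowest members sat at 0.0503% to 0.0504% and the highest resting cells at 0.0473% to 0.0496%. Under 0.06% lay 30, 7, 44 and 7 members, and at 0.04% or more 33, 10, 59 and 6 resting cells. No *Ccl2* or *Ccl7* UMI was found in 56.3%, 54.9%, 51.8% and 70.7% of resting cells.

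The members were a smaller share of the Spp1-low reticular cells in ablated than in contralateral marrow, in both replicates. They were 45.3% of these cells in CONT1 (95% exact binomial interval 42.3 to 48.4%), 27.5% in ABL1 (22.7 to 32.7%), 34.0% in CONT2 (31.7 to 36.4%) and 23.1% in ABL2 (17.2 to 29.9%). The contralateral and ablated libraries did not overlap. The share was lower in ABL by 17.9 percentage points in replicate 1 and by 10.9 points in replicate 2, a mean difference of -14.4 points (SD 4.92, n = 2 replicates). With 2 libraries a condition no exact permutation test can go below a two-sided p of 0.33, so the shares were not tested, and intervals cover counting error only. The order held at higher levels up to 0.5%. At 0.2% or more lay 22.2%, 11.4%, 14.7% and 8.79% of Spp1-low reticular cells in CONT1, ABL1, CONT2 and ABL2, and at 1% or more 2.12%, 0%, 1.44% and 2.75% (22, 0, 23 and 5 cells), where ABL2 was the highest library.

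**Figure D1:**
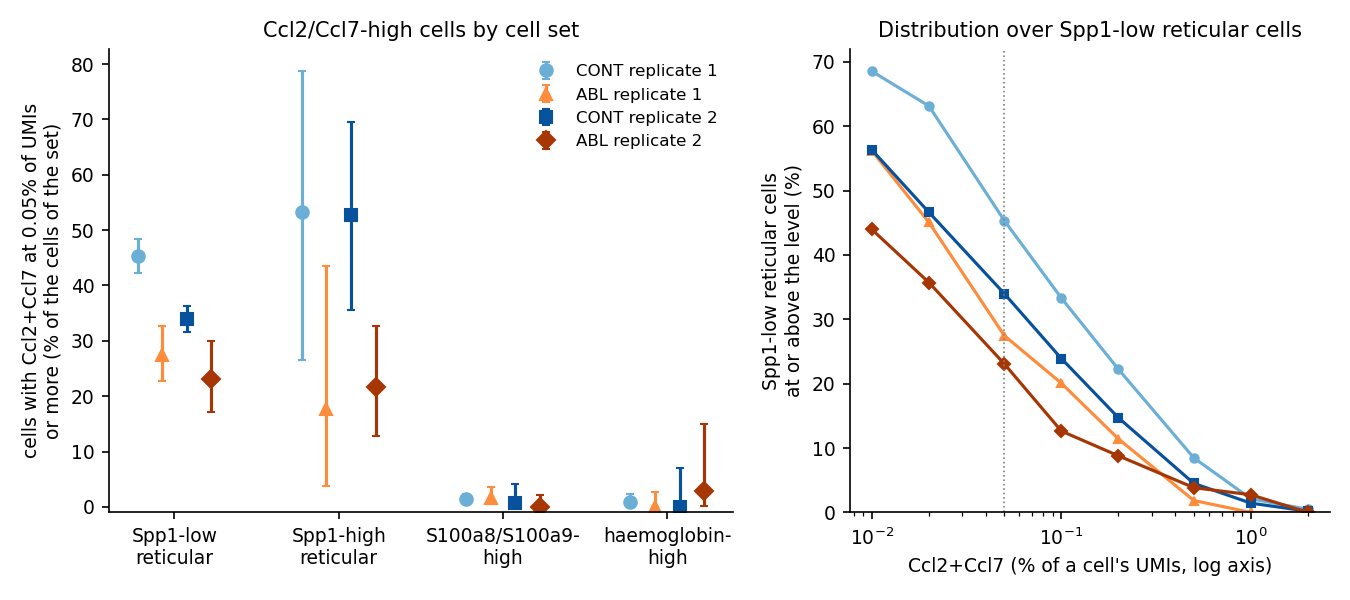
Left, percent of cells in which *Ccl2* and *Ccl7* made up at least 0.05% of UMIs, by cell set and library, with 95% exact binomial intervals; right, percent of Spp1-low reticular cells at or above each *Ccl2* and *Ccl7* level (log axis, dotted line at 0.05%). In Spp1-low reticular cells both contralateral libraries (45.3% and 34.0%) stand above both ablated libraries (27.5% and 23.1%). Granulocytic and erythroid cells, taken only where *Cxcl12* is low, stay at 0 to 2.86%.

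Granulocytic and erythroid cells were counted only where *Cxcl12* lay under the share required of reticular cells, which keeps reticular cells out. With this choice, which itself favours low rates, they rarely reached the limit for *Ccl2* and *Ccl7*. Among granulocytic cells (*S100a8* and *S100a9* at 1% of UMIs or more) 1.39% of 1076 cells reached it in CONT1, 1.59% of 314 in ABL1, 0.746% of 134 in CONT2 and 0 of 163 in ABL2, for which the exact interval allows up to 2.24%. Among erythroid cells (haemoglobin at 10% or more) 0.909%, 0%, 0% and 2.86% did, the last being 1 of 35 cells. Reticular cells with *Spp1* at 0.2% or more, a bone matrix gene, reached it in 53.3% (8 of 15), 17.6% (3 of 17), 52.8% (19 of 36) and 21.6% (16 of 74) of cells, again with both contralateral libraries above both ablated ones. In droplets with at most 300 UMIs, which hold free RNA, *Ccl2* and *Ccl7* made up 0.0802% of UMIs in CONT1, 0.0530% in ABL1, 0.103% in CONT2 and 0.0220% in ABL2. This free chemokine RNA was also lower in each ablated library, and its part in the share of members was not tested.

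The share of members also differed between cells of either sex, though in ABL1 in the opposite direction from the contralateral libraries. In the contralateral libraries members were 41.4% and 31.3% of Spp1-low reticular cells with an *Xist* UMI and 49.2% and 43.3% of those with a Y-linked UMI, in CONT1 and CONT2. Within Xist+ cells, which replicate 2 does not hold in ABL, the share was 41.4% in CONT1 and 28.7% in ABL1. Within Y+ cells it was 49.2% in CONT1, 10.7% in ABL1 (3 of 28 cells), 43.3% in CONT2 and 24.8% in ABL2. The share was thus lower in ABL within each sex that could be compared, with a mean difference of -28.5 points in Y+ cells.

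Members held a larger part of the *Ccl2* and *Ccl7* UMIs of called cells in contralateral than in ablated libraries. They held 71.1% of all *Ccl2* and *Ccl7* UMIs of called cells in CONT1, 47.1% in ABL1, 75.1% in CONT2 and 13.2% in ABL2. Cells with *Ptprc*, the pan-leukocyte gene, held 14.7%, 22.3%, 3.31% and 20.2%, and other cells without *Ptprc* that were not reticular 9.25%, 21.7%, 12.7% and 61.3%. These parts depend on cell numbers: members were 471, 89, 543 and 42 of 3419, 1438, 2397 and 2541 called cells. Non-reticular cells without *Ptprc* numbered 1134, 609, 484 and 1717. The cells were sorted, so the parts do not describe the sources of this RNA in whole marrow. *Ccr2*, the receptor for both chemokines, had 8, 0, 1 and 0 UMIs in members.

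**Figure D2:**
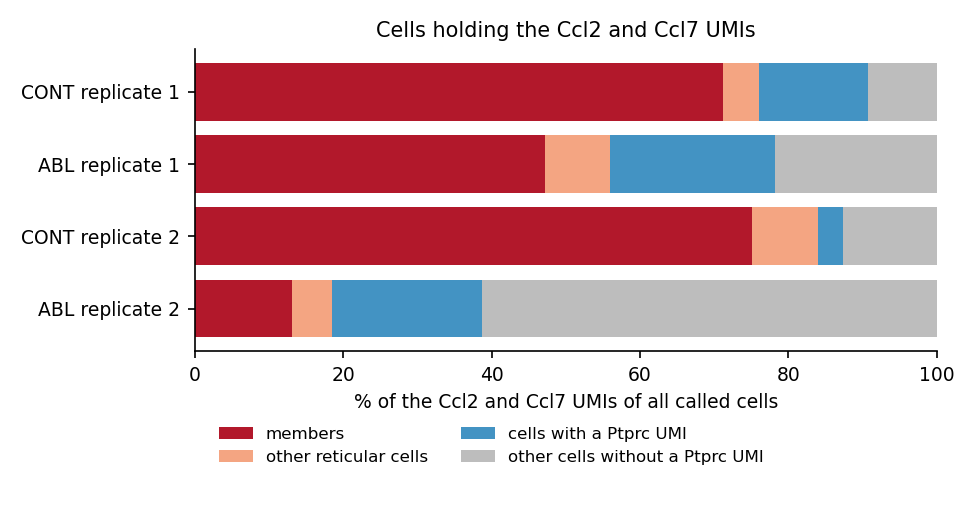
Percent of all *Ccl2* and *Ccl7* UMIs in called cells, by library, split into members, other reticular cells, cells with a *Ptprc* UMI and remaining cells. The members' part is 71.1% and 75.1% in the contralateral libraries and 47.1% and 13.2% in the ablated libraries, where ABL2 has 61.3% in cells that are neither reticular nor Ptprc+.

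To ask what else distinguished the members, their summed UMIs were compared with those of resting reticular cells of the same library, by edgeR's quasi-likelihood test with the library as a block and Benjamini-Hochberg adjustment. Members had more RNA of most tested genes of the NF-kappaB pathway, of some chemokines and cytokines, among them *Cxcl1*, *Il6* and *Lif*, and of several AP-1 and early response genes, and less of *Fos*, *Jun* and a few chaperones. Of 10667 genes tested, 315 were higher in members (2.95%) and 70 were lower (0.656%), with a median log2 difference of -0.01 over all genes. The cells were split by 2 chemokines within each library, so this comparison describes which RNAs were found in the same cells. CONT2, with 543 members, carried much of the power: without it 36 genes were higher and 5 lower, without CONT1 155 were higher and 36 lower, and without ABL1 365 and 117. With the library block replaced by the replicate or left out, 0 genes passed in edgeR (266 and 73 at an unadjusted p under 0.05), while DESeq2 called 130 higher and 9 lower. Of the genes described in this comparison, *Cxcl10*, *Cxcl9*, *Rela*, *Jun*, *Alpl*, *Tnfrsf1a*, *Ifi47*, *Bnip3*, *Hspa1b*, *Hspa5*, *Hspb1*, *S100a8*, *Ltf*, *Camp*, *Lyz2* and the haemoglobin genes *Hbb-bs*, *Hba-a1* and *Hba-a2* did not pass in DESeq2. DESeq2 gave no adjusted p for some other called genes, which neither passed there nor appear among these.

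Of 24 tested genes of the NF-kappaB pathway 19 were higher in members, 0 were lower and the median log2 difference was 0.50. Also 19 of the 24 were higher in members of every library, as were 7.86% of all genes tested. Without CONT2, 8 of the 19 passed, and 16 without CONT1. *Nfkbia*, which encodes the inhibitor IκBα, stood at 1374 CPM in members and 886 in resting cells of CONT1, 1016 and 696 in ABL1, 1199 and 761 in CONT2, and 884 and 676 in ABL2. Members were higher in each library (log2 0.62, SE 0.06, edgeR adjusted p = 1.9e-06). *Tnfaip3*, whose product A20 is an enzyme that shuts the pathway off, stood at 141 against 81.0, 111 against 61.2, 173 against 98.9 and 141 against 76.4 CPM, and was higher by log2 0.86 (SE 0.08, edgeR adjusted p = 4e-07).

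Genes for the NF-kappaB proteins themselves were also among the 19. *Nfkb1*, the gene of the p50 subunit, stood at 202 against 114 CPM in CONT1, 123 against 95.9 in ABL1, 286 against 174 in CONT2 and 255 against 149 in ABL2 (log2 0.75, SE 0.08, edgeR adjusted p = 3e-06). *Rela*, the gene of the activating p65 subunit, rose by log2 0.49 but was lower in members of ABL1 (36.9 against 45.6 CPM). *Vcam1*, a surface protein that holds leukocytes, rose by log2 0.33 from an already high level of 741 to 1446 CPM in resting cells, while *Icam1*, a related adhesion gene, did not pass (log2 0.31, edgeR adjusted p = 0.12). The other 4 genes that did not pass were *Nfkbib*, *Birc2*, *Cd44* and *Ripk2*. Of the 15 called genes of this list with a promoter sequence, 12 held a kappa-B match, against 12.6% of all tested genes with one. The list was made of known targets and regulators of NF-kappaB, so nothing about the members is read from this count. The share among its genes that were not called was not counted.

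**Figure D3:**
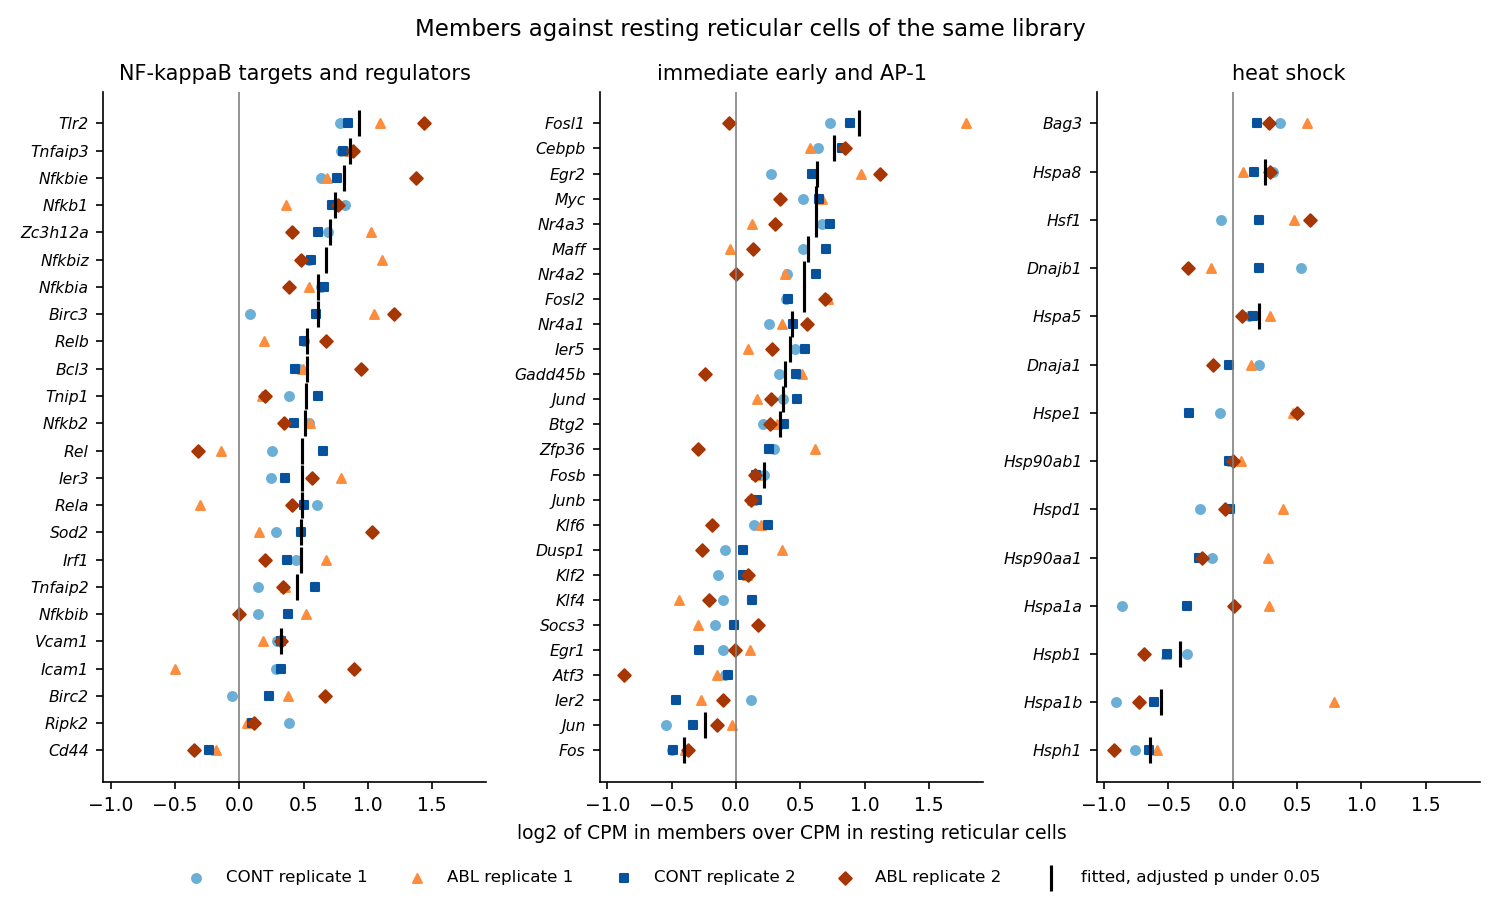
Log2 ratio of CPM in members to CPM in resting reticular cells for genes of the NF-kappaB pathway, immediate early and AP-1 genes, and heat shock genes; each point is 1 of 4 libraries and a black tick marks the fitted log2 difference of a gene with an adjusted p under 0.05. The NF-kappaB points lie mostly above 0 (*Tnfaip3* at 0.86, *Nfkbia* at 0.62), while *Fos* (-0.40) and *Jun* (-0.24) lie below it.

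Of 11 tested chemokine genes other than *Ccl2* and *Ccl7*, 5 were higher in members, 0 were lower and the median log2 difference was 0.46. *Cxcl1*, a neutrophil attractant, stood at 872 CPM in members and 382 in resting cells of CONT1, 565 and 172 in ABL1, 613 and 258 in CONT2, and 497 and 244 in ABL2. Every member value lay above every resting value (log2 1.33, SE 0.08, edgeR adjusted p = 1.4e-09). With each cell thinned to 2700 UMIs, a *Cxcl1* UMI was found in 57.5%, 46.1%, 47.5% and 42.9% of members, in 38.2%, 19.1%, 24.8% and 25% of resting cells and in 6.97%, 3.82%, 2.99% and 0.613% of granulocytic cells in CONT1, ABL1, CONT2 and ABL2. Before thinning these shares were 61.8 to 71.3%, 32.8 to 47.4% and 1.23 to 14.7%, at median depths of 4795 to 13439, 4479 to 12309 and 5902.5 to 11720 UMIs.

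*Cxcl10*, an interferon-induced attractant of T cells, differed between libraries. It stood at 115 CPM in members and 54.4 in resting cells of CONT1, 15.04 and 10.4 in ABL1, 454 and 72.6 in CONT2, and 74.9 and 47.9 in ABL2 (log2 2.03, SE 0.21, edgeR adjusted p = 2e-06), and DESeq2 did not call it (log2 1.31, adjusted p = 0.15). *Cxcl9*, a chemokine for the same receptor, was called (log2 0.72, edgeR adjusted p = 0.013) but was higher only in replicate 2, at 408 against 173 and 398 against 247 CPM, and stood at 65.7 against 69.6 and 28.7 against 56.0 CPM in replicate 1. *Cx3cl1*, the membrane-bound fractalkine, rose by log2 0.46 and was higher in each library. Without CONT2 neither *Cxcl9* nor *Cx3cl1* passed. The other called gene, *Ccl5*, stood at 0 to 12.3 CPM in members.

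Of 10 tested cytokine genes 3 were higher in members, *Il6*, *Lif* and *Tnfsf11*, 0 were lower and the median was 0.18. *Il6*, the gene of interleukin-6, stood at 124 CPM in members and 40.5 in resting cells of CONT1, 49.2 and 14.4 in ABL1, 184 and 81.9 in CONT2, and 83.9 and 38.7 in ABL2 (log2 1.36, SE 0.10, edgeR adjusted p = 1.3e-08). *Lif*, a cytokine that signals through the same gp130 chain, stood at 15.5 and 4.85, 57.4 and 13.9, 48.7 and 13.0, and 8.99 and 0.921 CPM (log2 1.95, SE 0.14, edgeR adjusted p = 1.3e-08). Across libraries the states overlapped for both genes (*Il6* stood higher in resting cells of CONT2 than in members of ABL1), and the difference lay within each library. *Tnfsf11*, the osteoclast factor RANKL, stood at 741 and 581, 618 and 513, 759.5 and 504, and 644 and 367 CPM (log2 0.53, SE 0.07, edgeR adjusted p = 4.6e-05).

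Of 26 tested immediate early and AP-1 genes 14 were higher in members and 2 were lower, with a median of 0.32, and without CONT2 5 of these 16 passed. *Cebpb*, a transcription factor of the acute phase response, stood at 3605 CPM in members and 2319 in resting cells of CONT1, 2005 and 1347 in ABL1, 1867 and 1054 in CONT2, and 1935 and 1075 in ABL2 (log2 0.76, SE 0.06, edgeR adjusted p = 1.3e-08). *Myc*, a growth regulator, rose by log2 0.62. *Fos*, an AP-1 subunit that stimulated cells switch on within minutes, went the other way, at 2284 and 3233, 1853 and 2434, 2576 and 3626, and 1408 and 1823 CPM (log2 -0.40, SE 0.05, edgeR adjusted p = 3.3e-05). Its partner *Jun* fell by 0.24 on the log2 scale (edgeR adjusted p = 0.047).

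Heat shock genes showed no common direction. Of 14 tested, 2 were higher (*Hspa5* and *Hspa8*), 3 were lower (*Hspb1*, *Hsph1* and *Hspa1b*) and the median was 0.05. *Hsph1*, a chaperone of the HSP110 family, stood at 51.0 CPM in members and 86.2 in resting cells of CONT1, 34.2 and 51.4 in ABL1, 97.0 and 153 in CONT2, and 38.9 and 73.7 in ABL2 (log2 -0.65, edgeR adjusted p = 6.9e-05). *Hspa1a* did not pass (log2 -0.34, edgeR adjusted p = 0.11), and reads of the near-identical pair *Hspa1a* and *Hspa1b* can be split between them. Without CONT2, 0 of the 5 calls in this list passed.

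Other genes named by size of difference had varied roles. *Vdr*, the vitamin D receptor, stood at 102 CPM in members and 59.2 in resting cells of CONT1, 107 and 65.8 in ABL1, 178 and 103 in CONT2, and 174 and 37.8 in ABL2 (log2 0.94, edgeR adjusted p = 2e-05). It was higher in members of each library, as the choice of genes by size required. *Rab20*, a small GTPase of endosomes, rose by log2 0.99, *Vegfa*, the angiogenic factor, by 0.61, *Adm*, the vasodilator adrenomedullin, by 1.00, *Jak2*, a kinase of cytokine receptors, by 0.86, and *Ptgs2*, the inducible prostaglandin synthase, by 0.98. *Adm*, *Jak2* and *Ptgs2* did not pass without CONT2.

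The genes lower in members were fewer and their differences smaller. *Txnip*, an inhibitor of glucose uptake and of thioredoxin, stood at 52.2 CPM in members and 107 in resting cells of CONT1, 31.5 and 67.0 in ABL1, 84.8 and 143 in CONT2, and 41.9 and 82.0 in ABL2 (log2 -0.83, SE 0.09, edgeR adjusted p = 4.3e-06). *Gadd45g*, a stress-induced growth arrest gene, stood at 243 and 468, 191 and 269, 156 and 238, and 165 and 201 CPM (log2 -0.62, edgeR adjusted p = 3.8e-05). Each was lower in members of all 4 libraries, as was required of genes named by size of difference. *Fbxw17* (-0.78), *G0s2* (-0.57), *Ppp1r35* (-0.56) and *Akr1c14* (-0.52) were also lower, and none of these 4 passed without CONT2.

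Few of the genes that define reticular cells were called between the states, which does not show equal levels. Of 14 tested reticular transcription factors 1 was higher (*Tcf4*) and 0 were lower, with a median of -0.06, and *Ebf3* and *Foxc1*, which maintain these cells, stood at log2 differences of -0.10 and -0.22. Of 14 hematopoietic niche genes 2 were higher, *Fgf7* and *Vegfa*, and *Kitl* stood at a log2 difference of 0.06. Of 10 adipogenic genes and 5 secreted Wnt antagonists 0 passed in either direction in edgeR, with medians of 0.04 and -0.03, and *Lepr* stood at 0.09. Of 9 tested genes of the study's osteoblast signature 1 was lower, *Alpl*, the alkaline phosphatase of mineralizing cells (25.9 and 47.8, 216 and 247, 16.3 and 33.6, and 114 and 105 CPM, log2 -0.53, edgeR adjusted p = 0.021), and was not lower in ABL2.

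Some interferon, receptor, acute phase and hypoxia genes were higher in members, beside 2.95% of all genes tested. Of 23 tested interferon genes 4 were higher (*Gbp5*, *Gbp2*, *Ifi47* and *Rsad2*) with a median of 0.26, though *Rsad2* was higher in CONT2 alone (26.6 against 2.94 CPM), and 0 of the 3 that could be tested without CONT2 passed there. Of 19 receptors for inflammatory signals 4 were higher with a median of 0.10. *Il17ra*, the interleukin-17 receptor, was among them, at 121 and 86.6, 144 and 97.6, 114 and 84.8, and 114 and 78.3 CPM (log2 0.52, edgeR adjusted p = 0.00029), and so was *Tnfrsf1a*, a receptor for tumour necrosis factor (log2 0.27). Of 20 acute phase, complement and prostaglandin genes 2 were higher, *Ptgs2* and *Ptx3*, the gene of a pentraxin that binds microbes (796 and 520.4, 996 and 551, 405 and 255, and 632 and 289 CPM, log2 0.82, edgeR adjusted p = 1.3e-07). Of 12 hypoxia and glycolysis genes 4 were higher (*Hk2*, *Adm*, *Bnip3* and *Vegfa*).

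The levels of several of these genes followed the amount of *Ccl2* and *Ccl7* in steps rather than at the limit alone. Spp1-low reticular cells were placed in 5 bins, without a *Ccl2* or *Ccl7* UMI, with UMIs below the limit, and in 3 ranges above it. From the first to the last bin *Nfkbia* rose in every step in each library, from 833 to 1536 CPM in CONT1, 533 to 1097 in ABL1, 565 to 1355 in CONT2 and 630.1 to 976 in ABL2. *Cxcl1* went from 302 to 1162, 146 to 740.0, 185 to 936 and 193 to 767 CPM, with 1 step down in ABL2. *Fos* fell from 3459 to 1837, 2108 to 1278, 3481 to 2221 and 2004 to 957 CPM, not in every step. *Il6* rose in every step in CONT1 (30.5 to 159 CPM) and CONT2 (46.1 to 244), and had at most 33 UMIs a bin in the ablated libraries. The upper bins of the ablated libraries held as few as 11 cells. These trends are across bins of the same cells and carry no test.

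**Figure D4:**
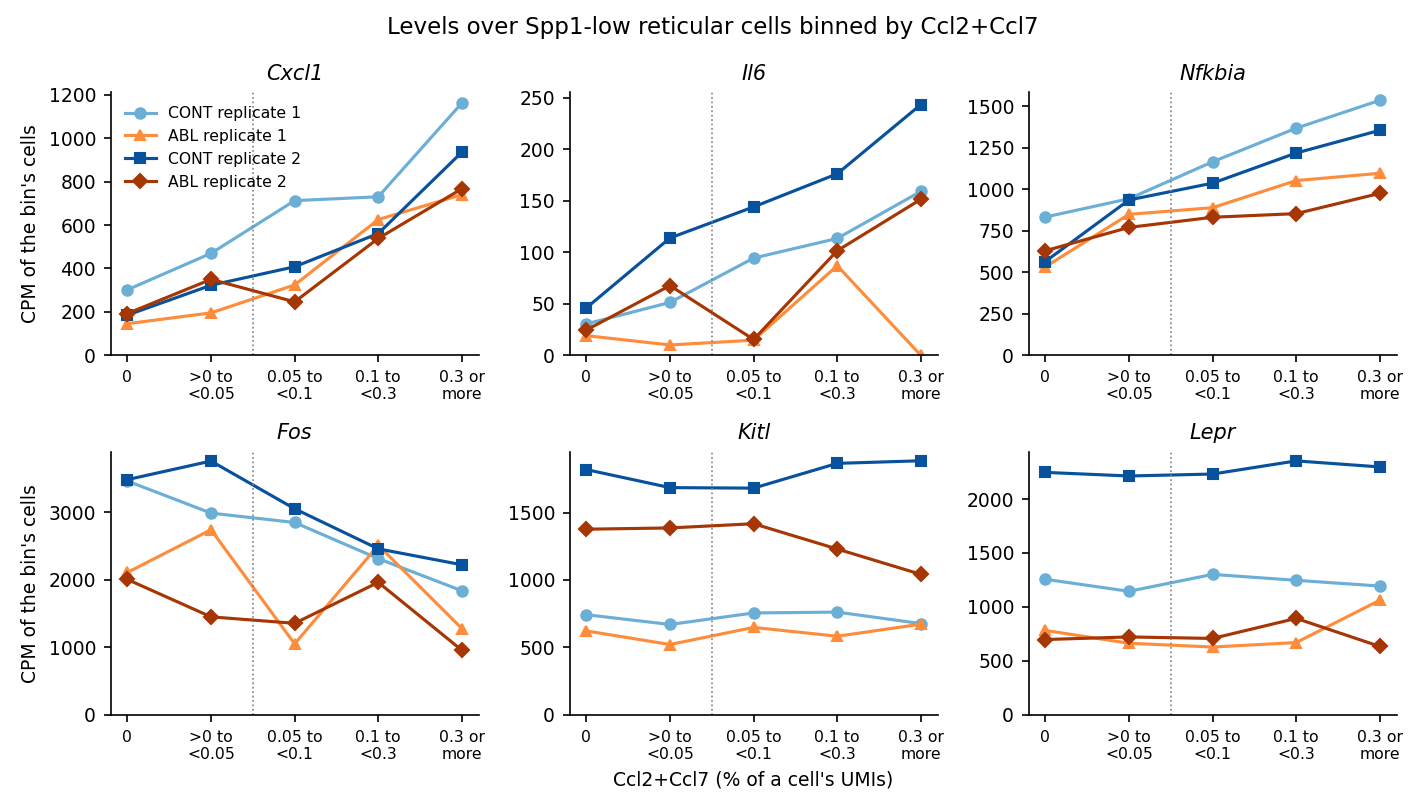
CPM of *Cxcl1*, *Il6*, *Nfkbia*, *Fos*, *Kitl* and *Lepr* in Spp1-low reticular cells over 5 bins of the percent of UMIs from *Ccl2* and *Ccl7*; each line is 1 library. *Nfkbia* rises in all 4 libraries (833 to 1536 CPM in CONT1), *Fos* ends lower than it starts (3459 to 1837 CPM in CONT1) and *Kitl* and *Lepr* show no slope common to the 4 libraries.

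RNA of other marrow cells also differed between members and resting cells. The summed level of 9 granulocytic markers was 10005 CPM in members and 16803 in resting cells of CONT1, 7988 and 10620 in ABL1, 144 and 153 in CONT2, and 80.9 and 934 in ABL2, and 5 of the 9 were called lower, *S100a8*, *Elane*, *Ltf*, *Camp* and *Ngp*. The call of *S100a8* was not stable, at a log2 difference of -0.67 as tested and 0.64 with the chemokine limit at 0.025% of UMIs. The summed level of 9 erythroid markers was 32563 and 31813, 6340 and 6173, 3152 and 1831, and 10367 and 4724 CPM, and the 4 haemoglobin genes were called higher, though reads of *Hba-a1* and *Hba-a2* and of *Hbb-bs* and *Hbb-bt* can be split within each pair. Of 9 tested monocyte and macrophage markers 1 was lower, *Lyz2*, the lysozyme gene. Of the tested endothelial, chondrocyte, joint lining, pericyte, B lineage and cycling markers 0 were called in either direction in edgeR. Median depth was slightly higher in members (4795 and 4479 UMIs in CONT1, 7163 and 6396 in ABL1, 13439 and 12309 in CONT2, 7503.5 and 7109 in ABL2), and mitochondrial UMIs slightly lower (medians of 3.27 to 5.32% against 3.71 to 5.34%). *Xist* stood at 463 and 619, 834 and 925, 746 and 942, and 0 and 0 CPM. With Xist+ cells alone 178 genes were higher and 36 lower, and 13 of the 19 NF-kappaB calls passed, and with Y+ cells alone 117 were higher and 34 lower, and 9 of the 19 passed.

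To ask how members differed between ablated and contralateral marrow, their summed UMIs were compared between ABL and CONT with the replicate as a block. Within each replicate the ABL and CONT members also differed in their share of cells with an *Xist* UMI, as given above. Effects of ablation, of sex and of animal thus cannot be told apart here, and no fit within 1 sex was run for this comparison. Members of ablated marrow had more RNA of some osteoblast and matrix genes, among them *Alpl*, *Col1a1* and *Fn1*, whose free RNA rose as well, and less of *Cxcl10*, *Il6* and a few regulators. Of 9242 genes tested, 66 were higher in ABL (0.714%) and 50 were lower (0.541%), with a median of -0.01 over all genes. The higher genes include 2 of the rule, *Bglap* and *Spp1*, from which nothing is read. These values rest on 89 and 42 cells in ABL. Genes named by size had to change in 1 direction in both replicates. How many of all tested genes kept the ablated and contralateral libraries apart was not counted. Without the replicate block 0 genes passed in edgeR (217 at an unadjusted p under 0.05) and DESeq2 with the block called 22 higher and 7 lower. Of the genes described in this comparison, *Il6*, *Icam1*, *Maff*, *Fosl1*, *Ptgs2*, *Gpr171*, *Bambi*, *Cbfa2t3*, *Apod*, *Sfrp1*, *Fabp4*, *Hspa1b* and *Alas2* did not pass in DESeq2. Here too DESeq2 gave no adjusted p for some other called genes, which are not among these. With CONT2 left out, in a fit without the block, 0 genes passed in either direction in edgeR (235 unadjusted), 4 were higher and 26 lower with ABL1 left out, 106 and 75 with CONT1 left out and 19 and 9 with ABL2 left out.

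Of 9 tested genes of the osteoblast list 4 were higher in ABL (*Postn*, *Alpl*, *Col1a1* and *Sp7*) and 0 were lower, with a median of 1.02. The study chose this list on these samples, so its direction is not independent evidence. *Alpl* stood at 25.9 CPM in CONT1, 216 in ABL1, 16.3 in CONT2 and 114 in ABL2 (log2 2.82, SE 0.32, edgeR adjusted p = 4.6e-15). Both ablated libraries lay above both contralateral ones. Resting cells, at the levels given above, also held more *Alpl* in ABL in both replicates. Free RNA of *Alpl* in empty droplets rose as well, at 30.4, 217, 37.7 and 219 CPM, and so did its level in granulocytic cells, at 2.51, 18.2, 0 and 40.7 CPM. *Col1a1*, the main collagen of bone, stood at 387, 2645, 149 and 962 CPM in members (log2 2.62, SE 0.42, edgeR adjusted p = 3.3e-07), 396, 5289, 353 and 11623 in empty droplets and 39.0, 1587, 4.76 and 2811 in granulocytic cells. In ABL2 granulocytic cells thus held more *Col1a1* than members, and the part of free RNA in these rises was not tested.

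Matrix genes outside this list rose too, and 3 of 19 tested extracellular matrix genes were higher (*Col3a1*, *Fn1* and *Timp1*) and 0 lower. *Fn1*, which encodes fibronectin, stood at 28.7, 362, 7.08 and 132 CPM in CONT1, ABL1, CONT2 and ABL2 (log2 3.78, SE 0.33, edgeR adjusted p = 1.1e-25), beside 146, 729.8, 142 and 2929 CPM in empty droplets and 32.7, 76.8, 0.476 and 271 in granulocytic cells, which held more of it than members in CONT1 and ABL2. *Olfml3*, a secreted matrix glycoprotein, stood at 27.1, 199.7, 21.4 and 234 CPM (log2 3.06, SE 0.31, edgeR adjusted p = 1.3e-18), beside 26.1, 173, 39.7 and 182 in empty droplets and 3.47, 17.4, 0.953 and 17.8 in granulocytic cells. Both genes were higher in each ablated library than in either contralateral one. *Sfrp2*, a secreted Wnt antagonist, stood at 70.5, 419.9, 20.9 and 95.9 CPM (log2 2.29, edgeR adjusted p = 8.4e-10), above the 29.9, 159.7, 17.7 and 29.1 CPM of empty droplets and the 1.56, 19.8, 0 and 0 of granulocytic cells. *Sfrp1*, of the same family, was the second of 2 called among 5 tested Wnt antagonists, at 95.2, 278, 144 and 267 CPM (log2 1.11, edgeR adjusted p = 0.025) and 24.7, 68.5, 72.2 and 21.8 in empty droplets.

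Other rises were on few UMIs or differed between replicates. *Npnt*, the matrix ligand nephronectin, stood at 7.96, 93.0, 5.51 and 24.0 CPM (log2 2.86, edgeR adjusted p = 8.7e-10), beside 7.85, 39.9, 9.73 and 15.7 in empty droplets. *Gzme*, a granzyme gene, stood at 11.1, 139.5, 0.525 and 14.98 CPM, the last from 5 UMIs, and *Sp7*, the osteoblast transcription factor osterix, at 6.77, 65.6, 2.75 and 8.99 CPM, the last from 3 UMIs. Free RNA of *Sp7* stood at 5.77, 41.9, 6.92 and 18.2 CPM in empty droplets, above members in replicate 2, and that of *Gzme* at 7.29, 28.8, 3.07 and 7.68. *Fabp4*, a fatty acid carrier, was called (log2 1.79, edgeR adjusted p = 0.00047) but went opposite ways, at 57.3 and 28.7 CPM in replicate 1 and 29.0 and 479 in replicate 2, and its difference was -0.75 without ABL2. Of the genes in the rule, *Spp1* stood at 90.4, 309, 87.9 and 584 CPM and *Bglap*, the osteocalcin gene, at 10.4, 103, 1.18 and 3.00 CPM, and both were capped by it. Of 8 tested erythroid markers 1 was lower in ABL, *Alas2*, the enzyme that starts haem synthesis in red cells (log2 -1.65, edgeR adjusted p = 0.035), and of 14 heat shock genes 1, *Hspa1b* (log2 -1.36, edgeR adjusted p = 0.0055).

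**Figure D5:**
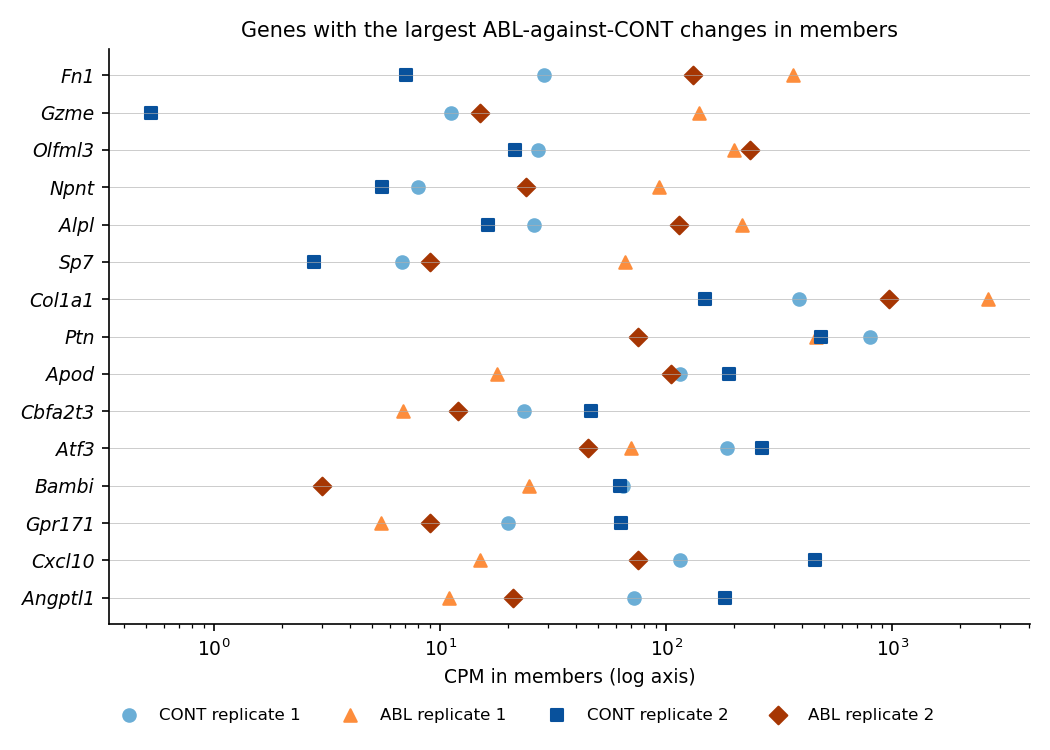
CPM in members (log axis) of the genes named by the rule for ABL against CONT, 1 point a library. That rule required 1 direction in both replicates. For *Fn1*, *Olfml3*, *Npnt*, *Alpl*, *Sp7* and *Col1a1* the ablated libraries lie above the contralateral library of the same replicate (*Fn1* 28.7 and 362, 7.08 and 132 CPM), and for *Angptl1*, *Cxcl10* and *Atf3* below it (*Cxcl10* 115 and 15.04, 454 and 74.9 CPM).

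Among the inflammatory genes *Cxcl10* and *Il6* were lower in members of ablated marrow. Resting cells, at the levels given above, were lower in ABL in both replicates too, so these falls were not particular to members. In members *Cxcl10* stood at 115 CPM in CONT1, 15.04 in ABL1, 454 in CONT2 and 74.9 in ABL2 (log2 -2.84, SE 0.37, edgeR adjusted p = 1.3e-11). *Il6* stood at 124, 49.2, 184 and 83.9 CPM in the same libraries (log2 -1.35, SE 0.32, edgeR adjusted p = 0.0052, against 0.13 in DESeq2). Both ablated libraries lay below both contralateral ones for each gene, and the same was seen in empty droplets, at 37.4, 12.8, 169 and 19.8 CPM for *Cxcl10* and 58.0, 22.7, 134 and 22.4 CPM for *Il6*. Of 9 tested chemokines 2 were lower, *Cxcl10* and *Cxcl2*, with a median of -0.58, and of 24 NF-kappaB genes 1, *Icam1*, with a median of -0.37. *Cxcl1* and *Nfkbia* did not pass, at log2 differences of -0.58 and -0.55 (edgeR adjusted p = 0.71 and 0.78), and of 21 interferon genes 0 did, with a median of 0.35. Of 19 acute phase, complement and prostaglandin genes 1 was higher in ABL, *Ptgs2*, at 12.3, 34.2, 41.4 and 98.8 CPM (log2 1.24, edgeR adjusted p = 0.029), and 0 were lower, with a median of -0.52.

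Other falls were in genes of varied function. *Angptl1*, a secreted angiopoietin-like protein, stood at 71.7, 10.9, 181 and 20.97 CPM (log2 -3.02, SE 0.40, edgeR adjusted p = 1.2e-10). *Atf3*, a stress-induced transcription factor, stood at 186, 69.7, 264 and 44.9 CPM (log2 -2.01, SE 0.33, edgeR adjusted p = 1.2e-06). A fall in both replicates was required for naming them, and for both the ablated libraries also lay below the contralateral ones without overlap. In empty droplets the levels were 17.2, 10.2, 85.3 and 64.7 CPM for *Angptl1* and 170.1, 134, 321 and 232 for *Atf3*. *Gpr171* (log2 -2.44), a G protein-coupled receptor, *Bambi* (-2.13), a decoy receptor of the TGF-beta family, *Cbfa2t3* (-1.97), a corepressor, *Apod* (-1.74), the apolipoprotein D gene, and *Ptn* (-1.72), the growth factor pleiotrophin, were also lower. Of the 26 immediate early genes tested 1 was higher, *Fosl1*, and 2 were lower, *Atf3* and *Maff*, and of 14 niche genes and 14 reticular transcription factors 0 passed in edgeR, with *Lepr* at a log2 difference of -1.30 (edgeR adjusted p = 0.12) and *Kitl* at -0.51.

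Whether the difference between members and resting cells itself differed between ABL and CONT was tested by the interaction of state and condition. Of 10667 genes, 2 had a smaller difference in ABL than in CONT (0.0187%) and 0 a larger one in edgeR, with 636 at an unadjusted p under 0.05, and DESeq2 called 0 in either direction (96 unadjusted). None of the tested genes of the chemokine, cytokine, NF-kappaB, AP-1 or heat shock lists passed. The 2 genes were *Mt1* and *Ftl1*, described among the additional observations.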

How the data were processed

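The authors aligned reads to mm10 with eGFP and tdTomato-WPRE sequences added, using Cell Ranger (version not given in the sources used here), and deposited raw UMI counts for 28006 features over all 737280 (v2) or 6794880 (v3) barcodes of each of 4 libraries. No cell calling had been applied, so barcodes were kept as cells from 500 genes, at most 20% mitochondrial UMIs and 2700 UMIs (v2), or 1000 genes, 15% and 4000 UMIs (v3). The gene and mitochondrial limits are those of the study, and alone leave 4809, 1768, 2478 and 2720 cells in CONT1, ABL1, CONT2 and ABL2. Free RNA can add UMIs to every droplet, so levels in droplets with at most 300 UMIs and in granulocytic cells are given beside many of the rises and falls between conditions.

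The members and all gene lists were chosen with earlier results of these data known. Counts were summed per library and state and tested in edgeR 4.0.16 (R 4.3.3; quasi-likelihood F test, TMM, filterByExpr, threshold 0.05), leaving out the 9 genes of the rule from tests against resting cells. They stayed in the fit of ABL against CONT, where 2 passed and are not used. ABL was compared with CONT under the replicate as a block, since the study took both femurs from the same mice by its methods. Deviations of the paired libraries from their condition means had a correlation of 0.59 across 9242 genes. With 2 libraries a condition, this value only compares the difference between replicates, and so between chemistries, in CONT and in ABL. It cannot show that femurs were paired. The *Xist* shares show that the paired libraries did not hold cells of the same mix of mice in either replicate. The model leaves 3 residual degrees of freedom for members against resting cells, 1 for ABL against CONT and 2 for the interaction. The fits were tested on simulated data before use, where the fit of ABL against CONT found only a small part of the changes put in.

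Named genes were those past the threshold with at least 20 CPM on average and 1 direction in all libraries or both replicates: the 10 largest rises and 10 largest falls against resting cells, 8 and 8 between conditions, 5 and 5 for the interaction, and genes of the lists, of which 1 is not reported here. Of 343 listed genes 341 were found in the files. Gene positions are from GENCODE M21 (GRCm38), and promoters from RefSeq (GRCm38.p6), which were found for 240 of 315 higher and 54 of 70 lower genes. Doublets were not removed, as the study names no such step. Scrublet (scanpy 1.11.5) marked 76, 17, 1 and 14 cells, 2 of them members. With 1 call in CONT2 it may not have worked there, which was not tested. The alternatives were other normalizations, DESeq2 1.42.0, no filter on low counts, limits of 0.025% and 0.1%, cells thinned to the UMI minimum, doublets removed, only cells with a tdTomato UMI, the study's filter alone, other blocks, each library left out, and, added after the data were seen, cells of 1 sex. The study's own cluster assignments were not used here.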

Additional observations from a re-analysis of the deposited data

Results flagged for a closer look

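*Mt1* and *Ftl1* drew attention because the difference between members and resting cells was itself tested to differ between ABL and CONT. *Mt1*, the metallothionein that binds zinc and is induced by stress and glucocorticoids, stood at 2234 CPM in members and 1383 in resting cells of CONT1, 524 and 591 in ABL1, 1268 and 748 in CONT2, and 2294 and 1897 in ABL2. The log2 difference between states was smaller in ABL by a log2 value of -0.68 (SE 0.12, edgeR interaction test, adjusted p = 0.044), with replicate values of -0.87 and -0.49.

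*Ftl1*, the ferritin light chain that stores iron, stood at 5136 CPM in members and 4168 in resting cells of CONT1, 2566 and 3036 in ABL1, 1985 and 1552 in CONT2, and 2354 and 2590 in ABL2, so that members were higher in both contralateral and lower in both ablated libraries. The interaction was -0.54 (SE 0.10, edgeR adjusted p = 0.044), with replicate values of -0.54 and -0.49. *Ftl1* has many near-identical pseudogene copies, so its counts are uncertain. Neither gene passed with DESeq2, without TMM, with cells thinned, or without CONT1 or CONT2, and the cause was not tested.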

How the results depend on the processing

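In members against resting cells (315 genes higher and 70 lower), the counts were 243 and 113 without TMM, 130 and 9 with DESeq2, 389 and 129 without the filter on low counts, 338 and 116 against resting cells without a *Ccl2* or *Ccl7* UMI, 178 and 36 in Xist+ cells and 117 and 34 in Y+ cells. With 1 library left out they ranged from 36 to 365 higher and from 5 to 117 lower, the lowest without CONT2 and the highest without ABL1. With the replicate block in place of the library block, and with no block, 0 genes passed in either direction. In ABL against CONT (66 and 50), the counts were 80 and 29 without TMM, which also moved the median of all genes to 0.11, 22 and 7 with DESeq2, 34 and 13 at a limit of 0.1%, and 30 and 13 with thinned cells. Leaving out 1 library, with no replicate block, gave 0 to 106 higher and 0 to 75 lower (4 and 26 without ABL1, 19 and 9 without ABL2), and with no replicate block 0 passed in either direction, which also removed the calls of all genes named in that comparison. In the interaction (0 and 2), 0 genes passed without TMM, with RLE, with DESeq2, at 0.025% and with the replicate block. It gave 7 and 18 without the filter, 9 and 6 at 0.1%, 2 and 4 with doublets removed and again in tdTomato+ cells, 1 lower with the study's filter alone, 3 lower with thinned cells, and 0 to 10 higher and 1 to 35 lower with 1 library left out. The mean difference in the share of members was -28.5 points in Y+ cells and between -12.3 and -15.5 points under the other alternatives that keep both replicates.

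Some named genes changed direction. *S100a8* stood at 0.64 at 0.025% and 0.68 with thinned cells, *Camp* at 0.10 and 0.044 under the same settings and at 0.10 against resting cells without a *Ccl2* or *Ccl7* UMI, *Rsad2* at -0.17 at 0.1%, and *Chil3* at 0.066 with thinned cells. In Y+ cells *Cxcl9* stood at -0.13, *Elane* at 0.19 and *Hba-a1* at -0.042. In ABL against CONT, *Alas2* stood at 1.23 without CONT1, *Bglap* at -0.96 without ABL1 and *Fabp4* at -0.75 without ABL2. *Cxcl1*, *Il6*, *Lif*, *Nfkbia*, *Cebpb*, *Vdr*, *Rab20*, *Txnip*, *Gadd45g* and *Fos* passed in members against resting cells under each alternative other than the changes of block. The causes were not tested. The ablated libraries, with 89 and 42 members, limit what could be seen between conditions, and a p above the threshold there does not show equal levels.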

Other observations

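Genes of cartilage and matrix turnover were also found at higher levels in members of ablated marrow, together with their free RNA. Both chondrocyte markers that could be tested were called. *Col2a1*, the main collagen of cartilage, stood at 19.5, 78.0, 0.918 and 29.95 CPM in CONT1, ABL1, CONT2 and ABL2 (log2 2.58, SE 0.41, edgeR adjusted p = 2.8e-07), from 49, 57, 7 and 10 UMIs, and at 238, 835, 50.7 and 2516 CPM in empty droplets and 40.4, 72.5, 1.43 and 15.3 in granulocytic cells. *Comp*, a cartilage matrix protein, stood at 9.56, 31.5, 3.80 and 41.9 CPM (log2 2.39, edgeR adjusted p = 8.6e-05), below its 34.3, 85.3, 40.7 and 1634 CPM in empty droplets, and granulocytic cells held 6.58, 8.32, 0 and 233 CPM, more than members in ABL2. *Timp1*, an inhibitor of matrix metalloproteinases, stood at 43.8, 108, 17.7 and 119.8 CPM (log2 1.86, edgeR adjusted p = 1.8e-06), beside 28.5, 241, 42.0 and 423 in empty droplets and 2.15, 23.8, 0 and 55.4 in granulocytic cells. Each was higher in both ablated than in both contralateral libraries, in members and in empty droplets, and the part of free RNA was not tested. None of these 3 genes was called between members and resting cells, at log2 differences of -0.14, -0.50 and 0.09 (edgeR adjusted p = 0.79, 0.28 and 0.77).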
